A study of Mus musculus with 6 samples.

Results

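ATP-binding cassette (ABC) exporters of drugs and porphyrins were followed in red pulp macrophages of Bach2 knockout and wild-type mice. The group holds 7 genes, Abcb1a, Abcb1b, Abcc1, Abcc3, Abcc4, Abcc5 and Abcg2, out of 19990 genes that could be named on the array. They were taken as every probe whose RefSeq accession belongs to one of these symbols, which gave 10 probes of 55547. Abcc5 had 4 probes and each other gene had 1. These genes were selected on their log2 signal in knockout against wild type, so their differences between genotypes are a description and carry no test. Of the 10 probes, 9 were well above background on at least 3 arrays, and all 10 were kept.

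Red pulp macrophages of the spleen take up aged red blood cells, break down their heme and return the iron to the circulation. The knockout mice lacked Bach2, a transcription factor that binds Maf recognition elements. Flow cytometry was used to sort the cells out of spleens of C57BL/6 mice aged 8 to 9 weeks, 3 Bach2 knockout and 3 wild type, and the RNA of each mouse was read on 1 single-colour Agilent array. All mice were male except wild-type replicate 3, a female, and the sources used here state neither the sort gate nor the deleted part of Bach2.

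One slide carried the 6 arrays, the knockouts in its row 2 and the wild types in its row 1, and slide row cannot be told apart from genotype. A column of the slide paired a knockout with a wild-type mouse, and replicates bear the number of their column. Well measured spots, meaning those well above background, made up 37.5% to 51.5% of an array. The signal's 75th percentile was 3209 in knockout replicate 3, the highest, and 870 in wild-type replicate 3, the lowest. The brighter Bach2 probe read -2.42, -3.91 and -1.42 in knockout and -1.09, -0.22 and -1.54 in wild type, so knockout replicate 3 overlapped wild type, and whether the probe lies in the deleted part is not given in the sources used here. Of 16 red pulp macrophage markers, 15 were well above background on all 6 arrays and the other, Cd163, on 4. All 16 lay below 0, with a median difference of -0.48, and their mean level was between 5.23 and 5.49 in knockout and between 5.31 and 6.43 in wild type. Levels here are log2 signal minus the 75th percentile of the array, and differences are knockout minus wild type on that log2 scale, with the standard error (SE) of limma over 3 against 3 mice.

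ABC exporters are membrane pumps that use ATP to move substrates out of the cell. Abcb1a and Abcb1b encode the mouse P-glycoproteins, which expel hydrophobic drugs. The ABCC proteins carry organic anions such as glutathione and glucuronide conjugates, leukotrienes, prostaglandins and cyclic nucleotides. Abcg2 exports drugs, urate and porphyrins, the ring compounds from which heme is made, and is known from erythroid precursors and stem cells.

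Of the 7 exporters, Abcb1b was the gene whose signal separated the genotypes. Its knockout arrays read 0.63, 0.12 and -0.08, against -1.85, -1.97 and -1.08 in wild type. Every knockout array lay above every wild-type array, with a gap of 0.998 between the closest pair, knockout replicate 3 and wild-type replicate 3. The means were 0.22 ± 0.37 in knockout and -1.63 ± 0.48 in wild type (SD, n = 3 each), a difference of 1.85 ± 0.63 (SE) or 3.62-fold. Before scaling, its signal was 2414, 1283 and 3033 in knockout and 485, 435 and 412 in wild type. Taken column by column, the 3 pairs of mice differed by 2.48, 2.09 and 0.998. When each mouse was left out in turn, the difference lay between 1.65, without knockout replicate 1, and 2.13, without wild-type replicate 3. Without knockout replicate 3, the library whose Bach2 signal overlapped wild type, it was 2.01. Without both mice that carry the same animal tag, replicate 3 of each genotype, it was 2.28. The authors' deposited table of 279 probes holds this probe and no other of the 10. There, Abcb1b stands at 1.18, 0.67 and 0.53 in knockout and -1.29, -1.36 and -0.53 in wild type, centred on the median of the 6 arrays.

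**Figure D1:**
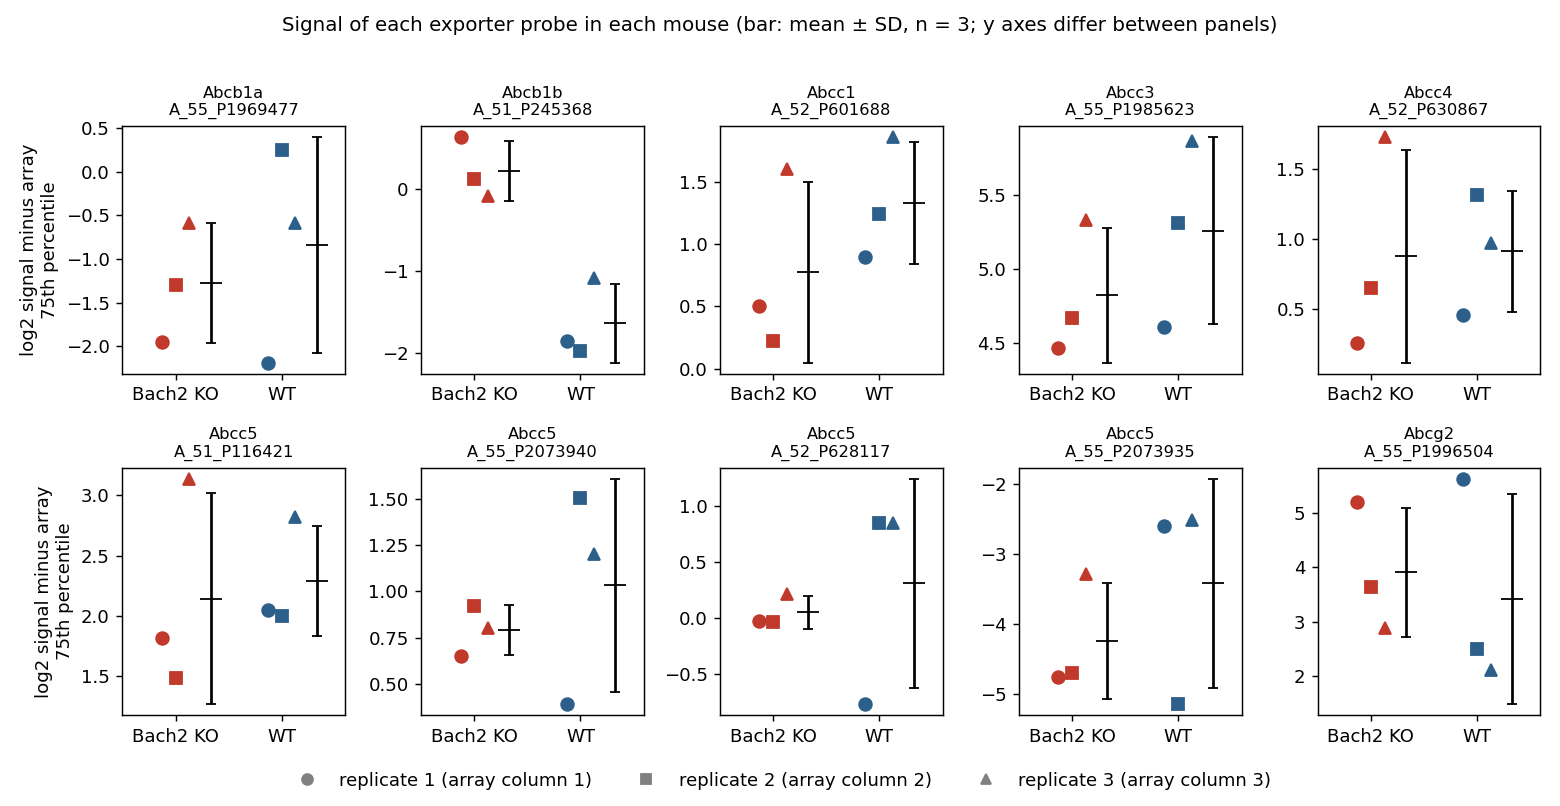
Level of each of the 10 exporter probes in every mouse, on the log2 scale relative to the 75th percentile of that array, with knockout left of wild type, marker shapes for replicates and black bars for mean ± SD (n = 3). Abcb1b is the panel without overlap, its knockout arrays lying between -0.08 and 0.63 and its wild-type arrays between -1.97 and -1.08.

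Abcb1a, the neighbour and close relative of Abcb1b, did not show this separation. It read -1.95, -1.29 and -0.58 in knockout, against -2.19, 0.25 and -0.59 in wild type. The genotypes overlapped, with both replicate 1 mice lowest in their genotype. The means were -1.28 ± 0.69 in knockout and -0.84 ± 1.24 in wild type (SD, n = 3 each), and the difference of -0.43 ± 0.76 (SE) was smaller than the spread between wild-type mice. It turned to 0.11 without wild-type replicate 2, and within array columns 1, 2 and 3 it was 0.23, -1.54 and 0.01. In the gene order of assembly GRCm38, Abcb1b lies between Abcb1a and Abcb4, the phospholipid exporter of bile. Abcb4 overlapped between genotypes too, at -0.24 ± 0.62 (SE). The files give no probe sequences, so how well each probe tells Abcb1a and Abcb1b apart was not tested.

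The start-site regions of this pair are shown because adjacent relatives read differently in the same RNA. Both are RefSeq sequences of build GRCm38.p6 that reach from 250 bases before to 50 bases after the start of the gene, on the plus strand, at chr5:8566841-8567140 for Abcb1a and chr5:8797897-8798196 for Abcb1b. Capitals mark matches to the motifs given after them.
Abcb1a: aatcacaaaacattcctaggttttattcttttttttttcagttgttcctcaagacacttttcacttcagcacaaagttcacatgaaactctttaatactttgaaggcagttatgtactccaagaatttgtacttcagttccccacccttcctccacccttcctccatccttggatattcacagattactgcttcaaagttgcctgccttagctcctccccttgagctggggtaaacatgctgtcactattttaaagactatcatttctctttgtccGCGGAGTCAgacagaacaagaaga
Abcb1b: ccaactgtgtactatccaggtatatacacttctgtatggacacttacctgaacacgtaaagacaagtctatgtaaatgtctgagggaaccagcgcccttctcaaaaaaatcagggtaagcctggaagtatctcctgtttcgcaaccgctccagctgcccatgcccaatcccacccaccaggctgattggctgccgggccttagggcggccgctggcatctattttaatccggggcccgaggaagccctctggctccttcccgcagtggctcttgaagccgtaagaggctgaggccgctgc
The motifs were TGANTCA, the core of elements bound by AP-1 and BACH factors, TGACNNNGC, the core of the antioxidant response element, and GCGTG, the core bound by the aryl hydrocarbon receptor, each on both strands. Abcb1a held 1 match, GCGGAGTCA, to TGACNNNGC on the minus strand, beginning 26 bases after the start, and Abcb1b held 0 of any of the 3 motifs in this window. Base composition also differed, with a GC content of 40.3% in Abcb1a and 55% in Abcb1b. Promoters were at hand for 5 of the 7 exporters, 8 sequences in all. TGANTCA occurred in 0 of these 8 and in 7.81% of all 32851 promoters, TGACNNNGC in 3 of 8 and 12.4% of all, and GCGTG in 2 of 8 and 32.4% of all. The other TGACNNNGC matches were TGACTCTGC and GCGGGGTCA, in the 2 start-site regions of Abcc4.

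P-glycoprotein is also known to be active in lymphocytes, and the mean levels of T cell and of NK and cytotoxic markers lay higher on every knockout array, like Abcb1b, although limma called 0 genes of either list at an adjusted p under 0.05. Among all named genes, 52.7% lay above 0 and 0.870% had every knockout array above every wild-type array. Of 18 T cell markers with a probe, 17 lay above 0 and 4 were higher without overlap, with a median difference of 0.92. Their mean level lay between 0.41 and 1.12 in knockout and between -0.10 and -0.02 in wild type, and Cd247 alone was dim on all 6 arrays. Of 15 markers of NK and cytotoxic cells, 14 lay above 0 and 5 were higher without overlap, with a median difference of 1.09. Their mean level lay between 1.10 and 2.18 in knockout and between -0.0045 and 0.73 in wild type, and each marker was well above background on at least 1 array. Among knockout mice Abcb1b was highest in replicate 1, whereas both marker means were highest in replicate 2. B cell markers had a median difference of 0.053, and their mean level lay between 0.42 and 1.04 in knockout and between -0.20 and 1.48 in wild type. Plasma cell markers had a median of 0.16 and overlapped as well, between 2.94 and 3.94 in knockout and between 2.86 and 3.39 in wild type. Neutrophil markers, of which 7 of 9 lay above 0, overlapped in mean level, between 0.91 and 3.27 in knockout and between 0.49 and 2.18 in wild type. The part of any of these cells in the Abcb1b difference was not tested. In RNA of a sorted population, more cells of a type and more RNA per cell cannot be told apart.

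**Figure D2:**
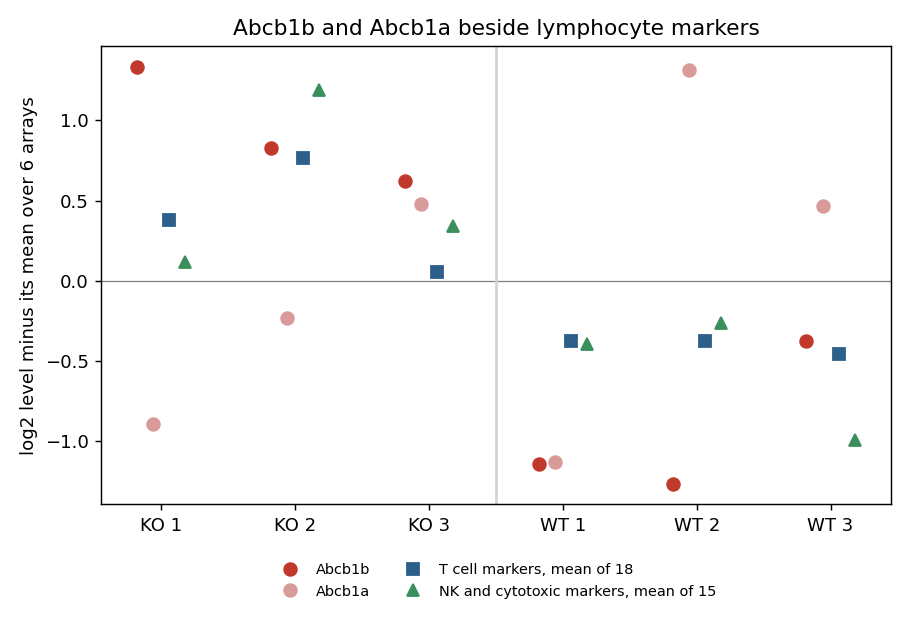
Level of Abcb1b and Abcb1a and mean level of the T cell and NK or cytotoxic markers on each array, each minus its own mean over the 6 arrays (log2), with knockout left of wild type. Abcb1b and both marker means are higher on every knockout array than on every wild-type array, while Abcb1a is not.

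The named genes whose pattern over the 6 arrays lay closest to that of Abcb1b were Ttc23, Ttc30a1, Cacnb3, Traf3ip2 and Hs3st1. Likeness was the root mean square difference of the levels after centring each gene on its mean. Compared were 6437 genes well above background on at least 3 arrays. Their spread had a floor set from that of Abcb1b and no upper limit, and the median gene stood 1.30 away. Ttc23 was 0.41 away, and was dim on 1 knockout and 2 wild-type arrays. Ttc30a1, an intraflagellar transport gene, was 0.41, Cacnb3, a calcium channel subunit, 0.44, Traf3ip2, an adaptor of the interleukin 17 receptor, 0.46 and Hs3st1, a heparan sulfate sulfotransferase, 0.50 away. Traf3ip2 was dim on 2 wild-type arrays. Ttc30a1, Cacnb3 and Hs3st1 were well above background on all 6 arrays. All 5 genes ran without overlap between genotypes, but they were chosen by likeness to Abcb1b, so this is no separate observation. For Hs3st1 the closest arrays were knockout replicate 3 at -0.86 and wild-type replicate 3 at -0.90. Cacnb3 read -0.51, -0.34 and -0.67 in knockout and -2.26, -1.63 and -1.76 in wild type.

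The 4 ABCC exporters were all well above background on every array by their brightest probe, and none of them separated the genotypes. Abcc1, which exports glutathione conjugates and leukotriene C4, read 0.50, 0.23 and 1.6 in knockout, against 0.90, 1.24 and 1.86 in wild type. Knockout replicate 3 lay inside the wild-type range. The means were 0.78 ± 0.73 in knockout and 1.33 ± 0.49 in wild type (SD, n = 3 each), with a difference of -0.56 ± 0.66 (SE). Within array columns 1, 2 and 3 it was -0.40, -1.01 and -0.26, below 0 in each.

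Abcc3, an exporter of glucuronides and bile acids, was the other exporter for which close patterns were looked up, being the one whose level averaged highest over the 6 arrays. It read 4.46, 4.67 and 5.34 in knockout, against 4.61, 5.31 and 5.87 in wild type, and the genotypes overlapped. The means were 4.82 ± 0.46 in knockout and 5.26 ± 0.63 in wild type (SD, n = 3 each), and the difference was -0.44 ± 0.65 (SE). Within columns 1, 2 and 3 it was -0.14, -0.64 and -0.53, again below 0 in each. Its closest patterns among 10741 genes belonged to Fkbp15 at a root mean square difference of 0.070, Ywhae, a 14-3-3 protein, at 0.081, the arginine methyltransferase Prmt2 at 0.088, the histone methyltransferase Setd1a at 0.095 and the glutamine transporter Slc38a1 at 0.105, where the median gene stood 0.673 away.

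Abcc4, which exports cyclic nucleotides and prostaglandins, read 0.25, 0.65 and 1.73 in knockout, against 0.45, 1.32 and 0.97 in wild type. Knockout held both the lowest and the highest array. The means of 0.88 ± 0.76 in knockout and 0.91 ± 0.43 in wild type (SD, n = 3 each) differed by -0.036 ± 0.66 (SE), and by -0.20, -0.67 and 0.76 within columns 1, 2 and 3. It was 0.27 without knockout replicate 1, 0.079 without knockout replicate 2 and 0.17 without wild-type replicate 2.

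Abcc5, an exporter of cyclic nucleotides that has also been linked to heme export, was read by 4 probes on 2 transcript accessions. The brightest, A_51_P116421, was printed as 10 spots on each array, whose SD within an array was between 0.044 and 0.067. It read 1.81, 1.48 and 3.14 in knockout, against 2.05, 2.0 and 2.82 in wild type, where replicates 1 and 2 differed by no more than the spots of an array and replicate 3 lay higher in both genotypes. The means were 2.14 ± 0.87 in knockout and 2.29 ± 0.46 in wild type (SD, n = 3 each), and the difference was -0.14 ± 0.68 (SE). Probes A_55_P2073940 and A_52_P628117, both of the accession NM_176839, differed by -0.24 ± 0.62 and -0.26 ± 0.67 (SE). Probe A_55_P2073935 cleared the background on 1 array of each genotype and differed by -0.83 ± 0.83 (SE). All 4 probes lay below 0 and overlapped between genotypes, but they ordered the mice differently. In wild type, replicate 1 was lowest on both NM_176839 probes, at 0.39 and -0.77, whereas it was close to replicate 2 on A_51_P116421.

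**Figure D3:**
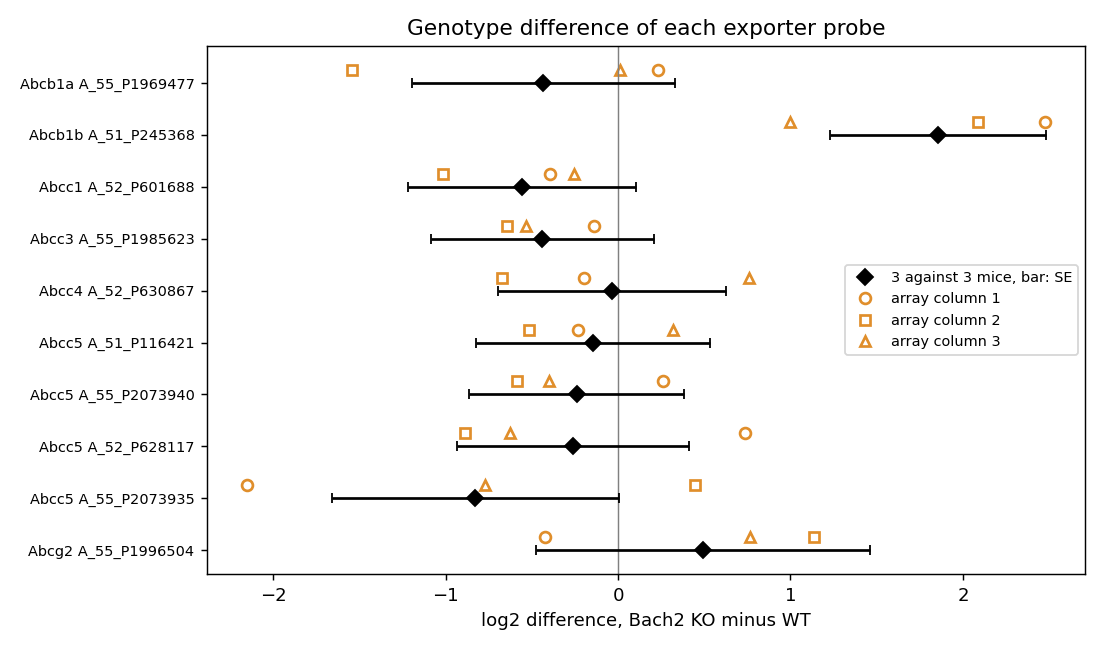
Difference between knockout and wild type for each of the 10 exporter probes on the log2 scale, as black diamonds with SE over 3 against 3 mice, with the difference within each array column as open orange markers. Abcb1b, Abcc1 and Abcc3 keep their sign in all 3 columns, and the other 7 probes do not.

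Abcg2 had the widest spread of the 7 exporters, and it ran within each genotype and not between genotypes. Its knockout arrays read 5.20, 3.63 and 2.87, against 5.62, 2.5 and 2.11 in wild type. Replicate 1 was far above the other mice in both genotypes, and the highest and lowest arrays stood 11.4-fold apart. Both replicate 1 arrays lay in array column 1, so a difference between mice cannot be told apart from one between columns. The means were 3.90 ± 1.19 in knockout and 3.41 ± 1.93 in wild type (SD, n = 3 each), and the difference of 0.49 ± 0.97 (SE) was smaller than either SD. It was -0.15 without knockout replicate 1, 1.6 without wild-type replicate 1, 0.037 without wild-type replicate 2 and -0.16 without wild-type replicate 3. Within array columns 1, 2 and 3 it was -0.42, 1.14 and 0.76.

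Genes of heme synthesis and of red cell precursors were likewise highest in replicate 1 of both genotypes. The patterns closest to Abcg2 were looked up after its values were seen, among 3728 genes above a floor of spread set from that of Abcg2. They belonged to Trim59 at a root mean square difference of 0.139, Uros, the uroporphyrinogen synthase of heme synthesis, at 0.185, the red cell membrane gene Gypc at 0.188, Klhl12 at 0.190 and Prkar2b at 0.203. The median gene stood 1.61 away. Uros read 5.69, 4.30 and 2.98 in knockout and 5.95, 2.87 and 2.71 in wild type, side by side with the values of Abcg2 above.

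Replicate 1 was the highest mouse of both genotypes for 8 of 9 heme synthesis genes, Alas1 being the exception, and for 7 of 9 erythroid markers with a probe, the globin genes Hba-a1 and Hbb-bt being the others. These lists share Alas2. The same held for 1 of the 7 exporters, Abcg2, and for 11.7% of all named genes. The mean level of the erythroid markers was 5.87, 4.57 and 3.14 in knockout and 5.99, 2.97 and 3.56 in wild type, and all 9 were well above background on all 6 arrays. The transcription factor Klf1 read 5.55, 4.38 and 1.31 in knockout and 5.83, 1.51 and 1.93 in wild type. The part of erythroid RNA in the level of Abcg2 was not tested. For these genes too, replicate 1 cannot be told apart from array column 1.

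Several other ABC genes were also highest in replicate 1 of both genotypes. Abcb10, a mitochondrial transporter known for its part in erythroid heme synthesis, read 6.09, 5.02 and 3.18 in knockout and 6.46, 3.87 and 2.83 in wild type. Abcb6, a porphyrin transporter, read 2.91, 1.92 and 1.22 in knockout and 3.66, 1.59 and 1.27 in wild type. Abcg4, a sterol exporter and relative of Abcg2, read 2.46, 1.85 and -0.38 in knockout and 3.24, -0.38 and 0.32 in wild type. Abcb4, Abcb9 and Abca7 had replicate 1 highest in both genotypes as well. By contrast, Flvcr1, the heme exporter of the plasma membrane, read -0.043, 0.63 and 2.38 in knockout and -0.043, 1.12 and 0.82 in wild type, with replicate 1 lowest in both. All of these ABC genes and Flvcr1 overlapped between genotypes.

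**Figure D4:**
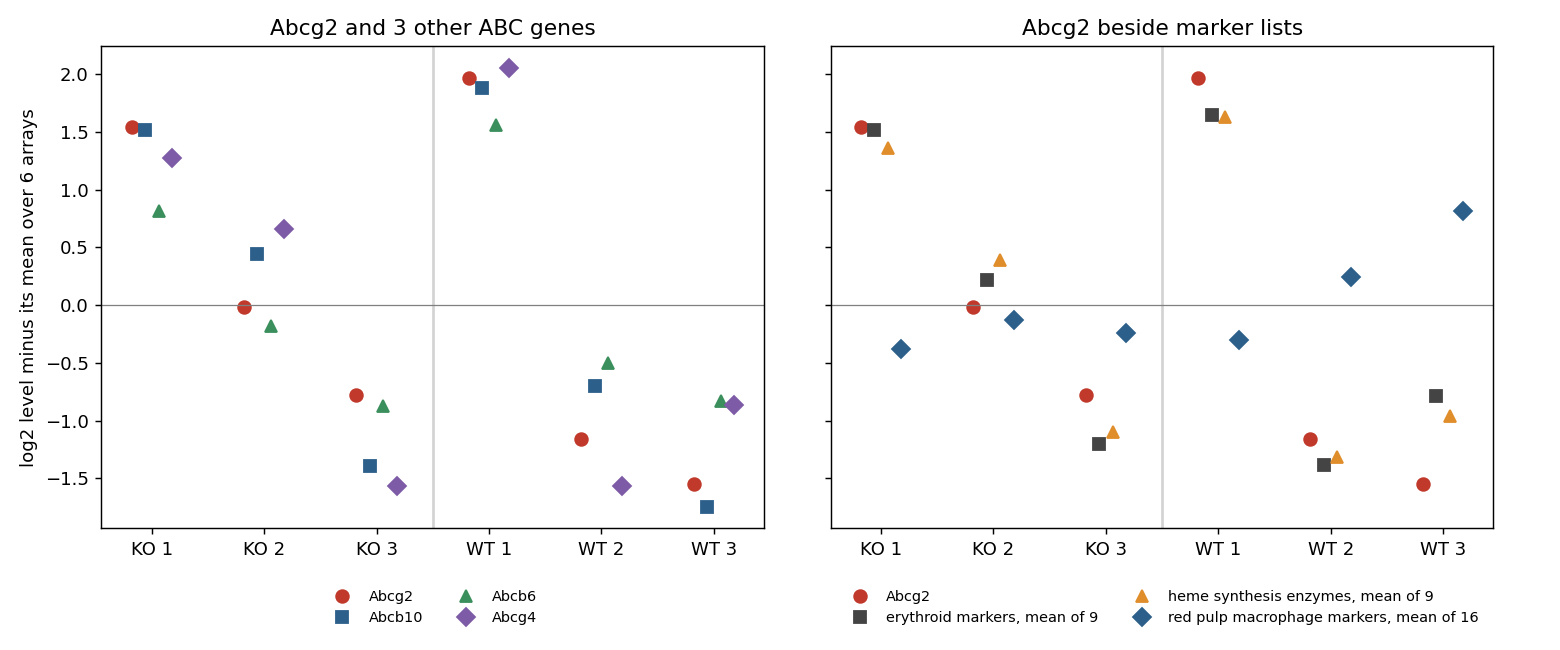
Levels on each array minus the mean over the 6 arrays (log2), with knockout left of wild type. The left panel shows Abcg2, Abcb10, Abcb6 and Abcg4, and the right panel sets Abcg2 beside the mean levels of the erythroid markers, the heme synthesis genes and the red pulp macrophage markers. Replicate 1 is highest in both genotypes for the 4 ABC genes and for the erythroid and heme synthesis means, but not for the macrophage markers.

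By their brightest probes, the exporters had 2 genes above 0, Abcb1b and Abcg2, and 5 below, where 52.7% of all named genes lay above and 47.3% below. The median difference of the 7 was -0.14, beside 0.035 over all 19990 named genes, dim ones included. The brightest probes of the 7 were all well above background on every array. Over the 23032 probes well above background on at least 3 arrays, the median was -0.12, close to that of the exporters. Scaling to the array median moved the median of all named genes by 0.13, to 0.16, and the percentile over bright probes moved it by 0.10. Measured from that median, 2 exporters lay above and 5 below under each of these scalings and under quantile normalization, and 3 above and 4 below after normexp background correction. Abcb1b was the 1 of 7 exporters without overlap between genotypes. Among all named genes, every knockout array lay above every wild-type array for 0.870% and below for 1.76%. Limma called 0 of 55547 probes at a Benjamini-Hochberg adjusted p under 0.05 (0% in each direction), the exporters included, with 490 probes, 0.882%, at an unadjusted p under 0.05. By brightest probe that unadjusted share was 0.800% of named genes.

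The other ABC genes were read as a background for the 7 exporters. Of 44 such genes with a probe, 23 lay above 0 and 21 below, with a median difference of 0.08, 0 without overlap and 0 called by limma, also at an unadjusted p under 0.05. Of the 44, 25 were well above background on all arrays and 16 on none. The other plasma membrane proteins of the B, C and G subfamilies had 5 of 14 genes above 0, with a median of -0.16. Abcg8, a sterol exporter, cleared the background on 1 wild-type array and no knockout array, and Abcb11, the bile salt exporter, on none. The transporters of organelles had 6 of 11 above 0 and a median of 0.10, with the mitochondrial Abcb8 at -0.36 ± 0.61 and the peroxisomal Abcd2 at 0.44 ± 0.86 (SE).

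The ABCA lipid transporters had 10 of 15 above 0 and a median of 0.28, but 8 of the 15 were well above background on no array. That median was -0.11 over genes well above background on at least 3 arrays, -0.25 without wild-type replicate 2 and 0.77 without wild-type replicate 3. Abca5 was well above background on 1 of 3 knockout arrays and no wild-type array, and Abca2 differed by 0.48 ± 0.75 (SE). The ABC proteins with no membrane domain, which act in translation, had 2 of 4 above 0, with Abcf3 at -0.16 ± 0.62 and Abcf2 at 0.09 ± 0.62 (SE). Each ABC gene named here had a limma adjusted p of 0.9999, the 7 exporters set aside.

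**Figure D5:**
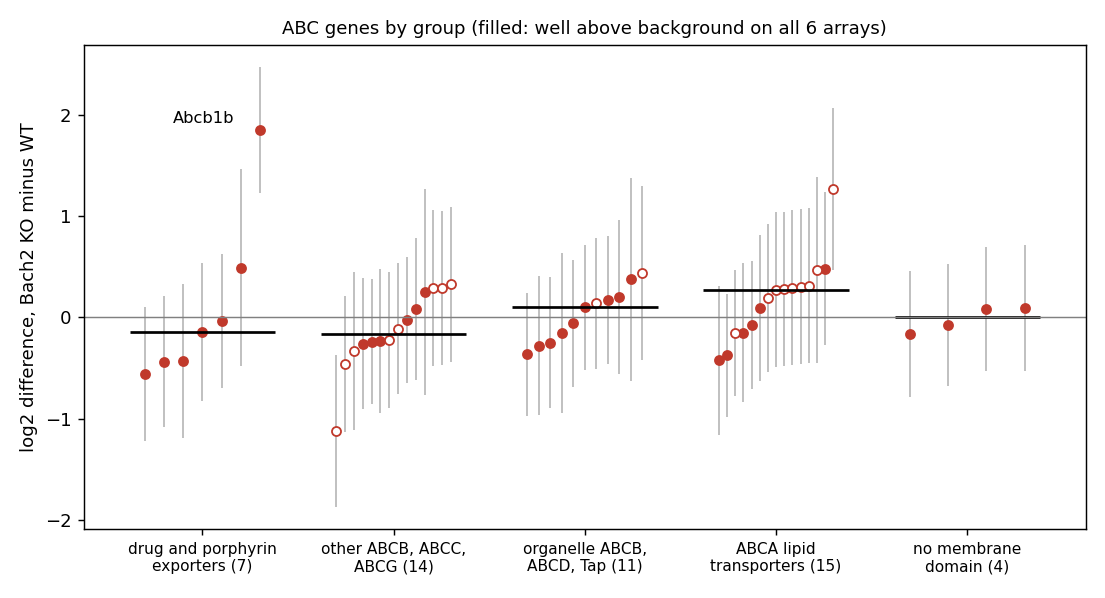
Difference between knockout and wild type on the log2 scale for 51 ABC genes in 5 groups, 1 dot per gene with SE over 3 against 3 mice, sorted within a group, with black lines for group medians and filled dots for genes well above background on all 6 arrays. Abcb1b, at 1.85, is the highest dot, and the group medians lie between -0.16 and 0.28.

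The genes that make, break down or carry the substrates of these exporters were read by the same fit, and 0 of them were called by limma. In the heme pathway, the synthesis genes had 8 of 9 above 0 and a median of 0.48, with Cpox at 0.58 ± 0.86 and Alad at 0.66 ± 1.22 (SE). The breakdown genes had 0 of 5 above 0 and a median of -0.29, with the heme oxygenases Hmox1 at -0.59 ± 0.66 and Hmox2 at -0.32 ± 0.63 (SE). Carriers of heme and porphyrins outside the 7 exporters had 6 of 13 above 0 and a median of -0.06. Among them the folate and heme carrier Slc46a1 differed by -0.70 ± 0.68 and the mitochondrial carrier Slc25a39, with 1 of 3 knockout arrays well above background, by -0.99 ± 1.01 (SE). At an unadjusted p under 0.05 these 3 lists had 0 genes. Some of the carriers, such as Abcb6, Abcb8 and Abcb10, are also counted among the transporters of organelles. The median of the synthesis genes was -0.19 without knockout replicate 1, 1.15 without knockout replicate 3, 1.53 without wild-type replicate 1 and -0.11 without wild-type replicate 2. The median of the breakdown genes was -0.59 without wild-type replicate 1, -0.077 without wild-type replicate 2 and -0.052 after quantile normalization.

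Glutathione is the partner or substrate of the ABCC pumps. Its genes for synthesis and conjugation had 11 of 24 above 0 and a median of -0.19, with 1 gene higher and 1 lower at an unadjusted p under 0.05. Without overlap, 1 gene was higher and 2 were lower, beside 0.870% and 1.76% of all named genes. Ggt1, which cleaves extracellular glutathione, was well above background in knockout replicate 1 alone, and read 0.52, -2.89 and -4.61 in knockout and -5.32, -5.46 and -4.67 in wild type (limma adjusted p = 0.9999). Gsta4, a glutathione transferase, read -0.52 ± 0.44 in knockout and 0.89 ± 0.51 in wild type (SD, n = 3 each), with no overlap and a difference of -1.40 ± 0.63 (SE, limma adjusted p = 0.9999). The antioxidant targets of Nrf2 had 7 of 20 above 0 and a median of -0.29, with 0 at an unadjusted p under 0.05. Their smallest p values were those of Gpx2, which overlapped between genotypes and was well above background on 1 wild-type and no knockout array, and Gstm1, at -0.94 ± 0.79 (SE). Several of these targets, Gstm1 among them, are also counted among the glutathione genes, and Hmox1 also among the heme breakdown genes, so the lists are not separate observations.

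Among the enzymes that make leukotrienes and prostaglandins, 4 of 11 lay above 0, with a median of -0.08. Ptgs2, the inducible cyclooxygenase, was well above background on 1 knockout array and no wild-type array, and Ptges3 differed by -0.37 ± 0.61 (SE). Enzymes of cyclic nucleotides had 8 of 15 above 0 and a median of 0.05. Gucy1b1, a guanylate cyclase subunit, was well above background on 1 wild-type array and no knockout array, and was the 1 gene of that list at an unadjusted p under 0.05. The phosphodiesterase Pde3b differed by 0.79 ± 0.66 (SE). Each had a limma adjusted p of 0.9999.

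Uptake carriers, which bring organic ions into the cell, had 9 of 15 above 0 and a median of 0.16. Slc22a15, a carrier of the organic cation family, was well above background on 2 of 3 knockout arrays and no wild-type array (limma adjusted p = 0.9999). Against wild-type levels raised to the dimmest well measured spot, the gene stood 2.14-fold higher in knockout, whose mean includes the dim array. It read -2.99, -0.98 and -2.73 in knockout, replicate 2 being highest, and -4.97, -6.52 and -4.27 in wild type. Folr2, the folate receptor of macrophages, was well above background on 2 of 3 knockout arrays and on every wild-type array. It read -2.22 ± 0.48 in knockout and -0.93 ± 0.49 in wild type (SD, n = 3 each). The genotypes did not overlap, and the difference was -1.29 ± 0.63 (SE, limma adjusted p = 0.9999). At an unadjusted p under 0.05 this list had 1 gene, Slc22a15. Of 23 regulatory genes, mostly transcription factors, 6 lay above 0 and 2 were lower without overlap, beside 1.76% of all named genes. Their median was -0.10, with 0 at an unadjusted p under 0.05. Their control of the exporters was not tested. The 2 with the smallest p were Bach2 itself, at -1.63 ± 0.76 (SE), and Foxo3, well above background on 1 knockout array and no wild-type array. The xenobiotic receptor Nr1i2 was well above background on no array, and the aryl hydrocarbon receptor, Ahr, differed by 0.94 ± 0.75 (SE).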

How the data were processed

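The deposited scanner files hold spot intensity after background subtraction, with no normalization across arrays. They name Agilent Feature Extraction 10.7.3.1 per the file headers, while the submitters' processing notes name version 9.1. A deposited table by the authors gives log2 values for 279 probes. Compared over 278 of them with the scanner files, these are the log2 signal scaled to the 75th percentile and centred per probe on the median, with a largest difference of 0.132, and how the probes were chosen is given only as filters. Its column medians were -0.29, -0.23 and -0.26 for knockout and 0.32, 0.34 and 0.28 for wild type.

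Of 59305 spots that were not controls, 141 to 283 per array were outliers and set to missing, 0 were saturated, and replicate spots were averaged. Of 55681 probes, 55547 had a value on all arrays and entered the fit, with no filter on dim probes. Accessions were named without version through a RefSeq table of GRCm38, used for names and gene order only. Each gene stands by its brightest probe over the 6 arrays. The fit over all probes used limma 3.58.1 (lmFit, then eBayes; R 4.3.3), tested on simulated data, with Benjamini-Hochberg adjustment over all probes. A fold against a genotype with no array well above background is a lower bound, set per array against the higher of the probe's level and the lowest spot well above background. The replicates are mice, which the labels tell apart by animal tags, 1 of them shared by a mouse of each genotype, with no replicate numbers, so replicates were numbered in record order and the number of arrays limits every value. Protein sequences were not used here.

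The exporters and the gene lists were chosen with earlier results of these data known. Named genes were the 7 exporters, the 2 genes of smallest p in each list and the 5 closest patterns to Abcb1b and to the exporter of highest mean level, which is a choice and no ranking of genes. Genes named beyond this rule (Abca7, Abcb4, Abcb6, Abcb9, Abcb10, Abcg4, Flvcr1, Klf1, Ahr, Nr1i2 and the genes close to Abcg2) were chosen after their values were seen. Normexp correction used median signals, an alternative chosen after seeing the data, since mean signals are not in these files.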

Additional observations from a re-analysis of the deposited data

How the results depend on the processing

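The block, the eBayes trend and the filters on dim probes leave the difference of a probe as it is by construction. Over the other alternatives Abcb1b lay between 1.5 with normexp on median signals and 2.28 without both mice of the shared tag. The median over the 7 exporters was -0.14 and lay between -0.64 and 0.079 when each mouse was left out, -0.64 without knockout replicate 3, 0.079 without knockout replicate 2 and 0.037 without wild-type replicate 2. It was -0.43 with probe A_55_P2073935 standing for Abcc5, and between -0.43 and -0.02 over the alternatives that left out no single mouse. The number of exporters above 0 was 2 to 4. Without 1 mouse, signs turned in 1 fit for Abcb1a, in 3 for Abcc4, in 3 for the brightest Abcc5 probe and in 2 for Abcg2, of 6 fits each. Scaling to the array median or to bright probes shifts all genes alike, and also turned Abcc4, whose difference is near 0. No probe passed an adjusted p of 0.05 by limma, except 3 with an intensity trend in eBayes and 2 with normexp. These were ENSMUST00000122399, ENSMUST00000103418 and ENSMUST00000103422, the last and the first in both, none of them an exporter and all looked up after their values were seen. Probes at an unadjusted p under 0.05 numbered 490 of 55547, and between 235 and 1421 over the alternatives, which do not all test the same probes or arrays. The 235 came from the filter on dim probes with 1 probe per gene, so from fewer probes. The 1421 came from the fit without both mice of the shared tag, so from fewer arrays. The genes of the related lists were called in none of 15 alternatives. Array column as a replicate block, the nearest to a paired fit since the labels give no replicate numbers, left each difference as it was, with 0 probes past the adjusted threshold and 525 at an unadjusted p under 0.05. Deviations from the genotype mean correlated by 0.636, 0.145 and 0.274 within columns 1, 2 and 3, but knockout replicate 3 correlated more with wild-type replicate 2, by 0.292. Normexp on mean signals was not run. Probes near background, such as A_55_P2073935, limit what can be said of dim genes.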
